A study of Mus musculus with 8 samples.

Results

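The habenula, a small paired nucleus of the epithalamus on top of the thalamus, was examined as the group of tissue spots that carried its marker genes in 8 coronal mouse brain sections. Gene expression was measured with Visium, in which RNA from a 10 µm section is captured on a grid of barcoded spots 55 µm wide, so a spot can hold several cells of different types. A spot was a member when the genes Gpr151, Gng8, Pou4f1, Chrna3 and Chrnb4 together gave 5 or more unique molecular identifiers (UMIs, single captured RNA molecules) and 4 or more per 10000 UMIs of that spot. This held for 163 of the 21328 spots kept in all, out of 22096 spots under tissue, of which 768 had fewer than 200 detected genes or more than 30% mitochondrial UMIs. The values of these 5 genes chose the spots, so they are given below as a description, and they were left out of every test.

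All mice were p16-3MR mice, labelled male and 9 to 10 months old. They carry the 3MR fusion protein under the promoter of p16, so that ganciclovir (GCV), through the viral thymidine kinase in 3MR, kills cells in which that promoter is active. The PTX+GCV, PTX+ABT263 and PTX mice had received paclitaxel (PTX, a taxane that stabilises microtubules) at 5 mg/kg/day in 2 cycles of 5 days set 7 days apart, and the Control mice its vehicle. After PTX, 1 group was given GCV at 25 mg/kg/day and another ABT263 (navitoclax, an inhibitor of anti-apoptotic BCL-2 family proteins) at 1.5 mg/kg/day, each over 2 cycles of 5 days set 2 weeks apart. Brains were taken 6 months after PTX, and each group is represented by 2 sections. Whether the 2 sections per group are from 2 mice is not given in the sources, so p-values here measure the spread between sections, which may be technical.

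The habenula links the forebrain with the midbrain and is known for its part in aversion, reward omission and nicotine withdrawal. Its medial nucleus is made of densely packed glutamatergic neurons, which express the nicotinic acetylcholine receptor subunits alpha-3 and beta-4 (Chrna3, Chrnb4), many of them releasing acetylcholine or a tachykinin peptide onto the interpeduncular nucleus. Its lateral nucleus sends glutamatergic axons to midbrain tegmental and monoaminergic nuclei. Of the genes of the rule, Pou4f1 is a transcription factor of habenular neurons, Gpr151 an orphan receptor on habenular axons and Gng8 a G protein gamma subunit.

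Several sections stood apart before any comparison. Of the habenula spots, 5 of 25 and 0 of 34 lay in the outer 3 rows of the array in PTX+GCV, 0 in both sections labelled PTX+ABT263, 0 in both PTX sections, and 7 of 7 and 9 of 11 in Control. They held 288137 to 481981 UMIs in all in the 6 sections other than Control, and 24769 and 139498 UMIs in Control. The 3 UMIs that a count of 0 allows therefore equal 121 counts per 1000000 UMIs (CPM) in Control section 1 and 6.22 to 21.5 CPM in the other 7 sections. Xist, which silences an X chromosome in female cells, had 15 and 8 UMIs in habenula spots of the sections labelled PTX+ABT263 and 0 in all others. The Y-linked gene Ddx3y had 1 and 0 UMIs there, against 24 and 16 in PTX. Both genes go against the male label of that group, whose sections are called the PTX+ABT263-labelled sections in what follows. All 8 arrays carry the same 4992 barcodes, and 2 of the 161 distinct barcodes of habenula spots occurred in more than 1 section.

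**Figure D1:**
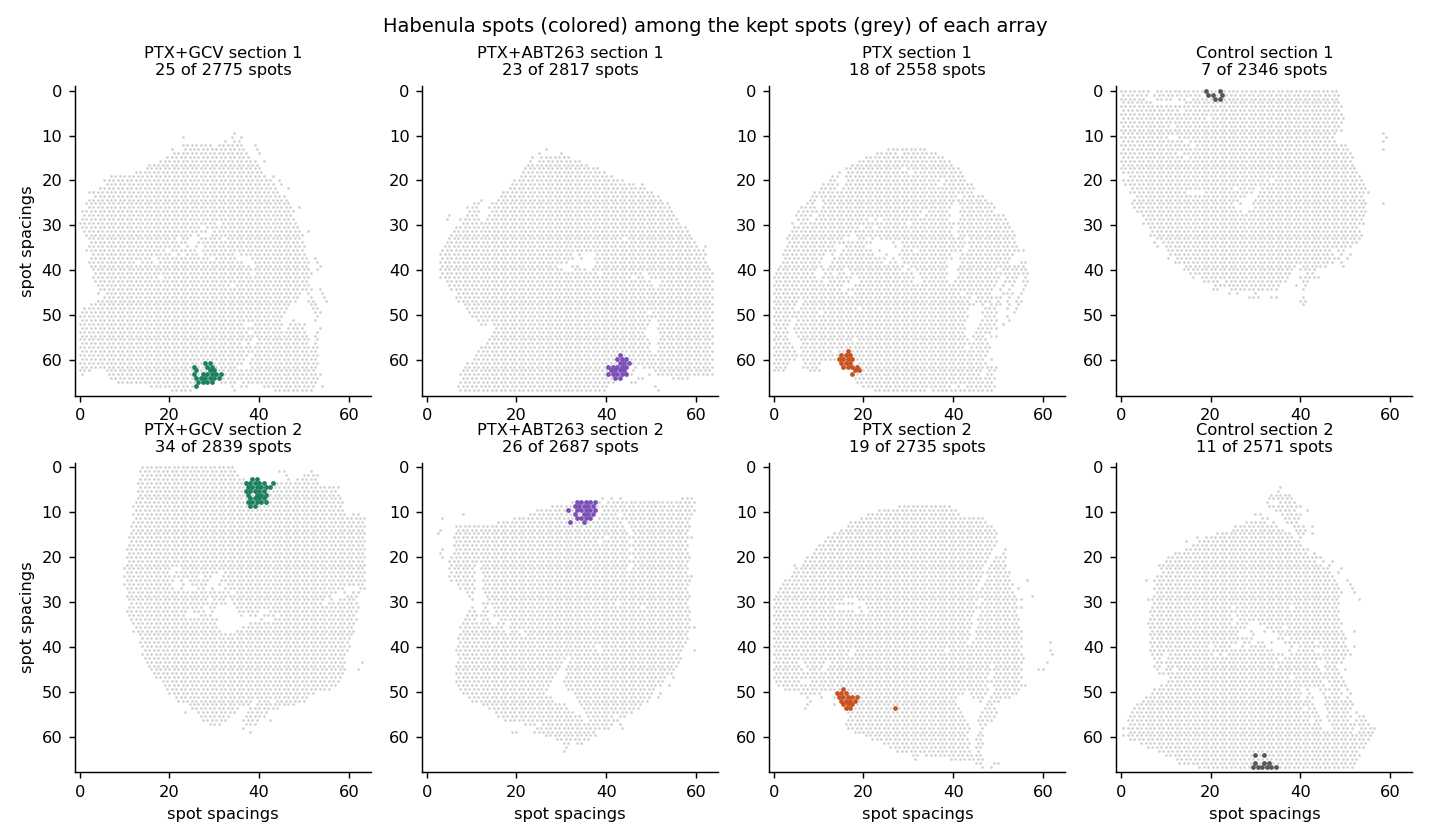
Position of habenula spots (colored) among all kept spots (grey) on each array, both axes in spot spacings, with 1 panel per section. Each section shows 1 main patch, which touches the edge of the array in both Control sections.

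Habenula spots formed 1 main patch in each section, and Control held the fewest of them. There were 25 and 34 in PTX+GCV, 23 and 26 in the PTX+ABT263-labelled sections, 18 and 19 in PTX, and 7 and 11 in Control. As a share of kept spots this was 0.901% and 1.198% in PTX+GCV, 0.816% and 0.968% in the PTX+ABT263-labelled sections, 0.704% and 0.695% in PTX, and 0.298% and 0.428% in Control. The sections of the groups compared did not overlap. The exact (Clopper-Pearson) 95% intervals, which cover counting error only, ran from 0.831% to 1.67% in PTX+GCV section 2, the highest, and from 0.120% to 0.614% in Control section 1, the lowest.

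The group means were 1.05% ± 0.21 in PTX+GCV, 0.892% ± 0.107 in the PTX+ABT263-labelled sections, 0.699% ± 0.00635 in PTX and 0.363% ± 0.0915 in Control (SD, n = 2 each). The differences were 0.350 percentage points for PTX+GCV over PTX, 0.193 for PTX+ABT263 over PTX and 0.336 for PTX over Control. Each had p = 0.333 in a two-sided exact permutation test, the smallest p that 2 sections against 2 allow. In the comparison of PTX with Control the group and the position at the array edge cannot be told apart. In that of PTX+ABT263 with PTX, the treatment cannot be told apart from the sex or identity of the sections, given Xist and Ddx3y. Only 5 of the 163 spots had no other member in a touching spot, 2 in the second PTX+ABT263-labelled section, 1 in PTX section 2 and 2 in Control section 2.

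All 5 genes of the rule were detected in 7 sections, and Chrna3 and Chrnb4 were at 0 in Control section 1. Gng8 had 1239 and 807 CPM in PTX+GCV, 968 and 1421 CPM in the PTX+ABT263-labelled sections, 1165 and 1113 CPM in PTX, and 888 and 394 CPM in Control. Chrna3 had 233 and 357 CPM in PTX+GCV, 325 and 330.2 CPM in the PTX+ABT263-labelled sections, 402 and 405 CPM in PTX, and 0 and 57.3 CPM in Control. Control therefore lay below the other sections in Chrna3, though a count of 0 in section 1 allows up to 121 CPM. In sums over spots, fewer cells of a type and less RNA per cell cannot be told apart. Chrnb4 had 146 and 145 CPM in PTX+GCV, 165 and 235 CPM in the PTX+ABT263-labelled sections, 248 and 199 CPM in PTX, and 0 and 43.0 CPM in Control.

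The axonal receptor gene Gpr151 was highest in Control section 1 and lowest in Control section 2, but its share of the markers was higher in both than elsewhere. It had 521 and 585 CPM in PTX+GCV, 477 and 544 CPM in the PTX+ABT263-labelled sections, 463 and 351 CPM in PTX, and 1211 and 344 CPM in Control. Of all marker UMIs, Gpr151 made up 15.9% to 28.0% in the 6 sections other than Control, and 53.6% and 38.1% in Control. Pou4f1 had 149 and 195 CPM in PTX+GCV, 152 and 181 CPM in the PTX+ABT263-labelled sections, 180.3 and 142 CPM in PTX, and 161 and 64.5 CPM in Control. At least 3 of the 5 genes were detected in 138 of the 163 spots, and all 5 in 63.

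**Figure D2:**
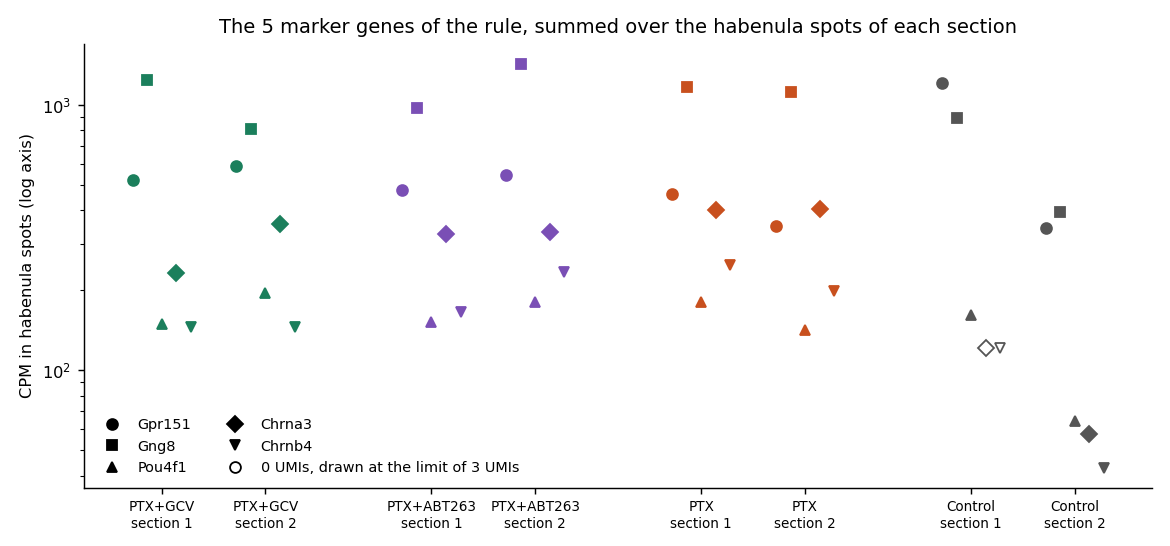
CPM (log axis) of the 5 marker genes of the rule, summed over the habenula spots of each section, with 1 symbol per gene. Chrna3 and Chrnb4 had 0 UMIs in Control section 1 and are drawn open at the 121 CPM that 3 UMIs would give.

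The threshold lay close to a continuum of weakly marked spots. The lowest member of a section had 4.03 to 4.77 marker UMIs per 10000 in 7 sections and 12.3 in Control section 1. In 6 sections, the spot outside the rule with the most marker UMIs had 1.80 to 3.80 per 10000. In PTX section 2 and Control section 1 that spot had 5.66 and 11.2 per 10000, and stayed outside because it held only 4 marker UMIs. Spots at 4 or more per 10000 with 2 to 4 marker UMIs stayed outside in 7 sections. They numbered 4 and 3 in PTX+GCV, 5 and 7 in the PTX+ABT263-labelled sections, 2 and 2 in PTX, and 4 and 0 in Control. The minimum of 5 UMIs is the stricter limit in any spot under 12500 UMIs. Of kept spots, 74.6% and 49.3% were under that depth in PTX+GCV and 44.1% and 51.3% in the PTX+ABT263-labelled sections. In PTX they were 36.0% and 45.3%, and in Control 79.5% and 49.2%. Cdkn2a, the gene of p16, had 0 UMIs in the habenula spots and 56 UMIs in all other kept spots, so its level in habenula spots was not measurable at this depth.

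Against the other spots of the same section, habenula spots held far more of many medial habenula genes. A gene was counted when it had 20 CPM or more on either side and was at least 2 times higher, or at least 2 times lower, in all 8 sections. Of 8070 genes considered, 82 (1.02%) were higher and 129 (1.6%) lower. Since the rule picked spots by gene expression, these are descriptions without a test. A gene at 0 in the shallow Control section 1 could not be counted as higher, and without that section 170 genes were. Since 1 UMI equals 40.4 CPM in that section, 1 UMI was enough there for any gene under 20 CPM in other spots.

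Several of the higher genes encode transcription factors. Irx2, an Iroquois homeobox factor, had 159.6 and 191 CPM in PTX+GCV, 211 and 173 CPM in the PTX+ABT263-labelled sections, 186 and 161 CPM in PTX, and 121 and 57.3 CPM in Control, a median of 103 times the level in other spots. Nhlh2, a basic helix-loop-helix factor, stood at a median of 40.3 times the level in other spots, the zinc finger factor Zic4 at 37.5 times and Irx3 at 25.0 times. Irx1 had a median of 45.5 times but 0 UMIs in Control section 1. Zic1 was detected in 160 of the 163 spots, at a median of 13.5 times the level in other spots. Nr4a2, an orphan nuclear receptor, stood at 7.51 times the other spots and was higher in all 8 sections, while Egr1, another gene of the immediate early list, was lower in all 8, with a mean of 20.4 CPM in habenula spots and 255 CPM in other spots.

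Receptors and signalling genes came next. The serotonin receptor gene Htr5b had the highest median ratio of the 82 genes, 148, with 72.9 and 118 CPM in PTX+GCV, 65.1 and 71.3 CPM in the PTX+ABT263-labelled sections, 115 and 109 CPM in PTX, and 121 and 14.3 CPM in Control. Here Control section 1 was the highest and Control section 2 the lowest, but these values rest on only 3 and 2 UMIs. The orphan receptor gene Gpr139 stood at a median of 41.4 times, Wif1, a secreted inhibitor of Wnt ligands, at 55.8 times, and the protein kinase C theta gene Prkcq at 27.6 times the other spots. Lrrc55, an auxiliary subunit of the large-conductance BK potassium channel, had a median ratio of 38.6, and Kcnma1, the pore-forming subunit of that channel, one of 5.76. The GABA-B receptor subunit Gabbr1 was higher in all 8 sections, with 982 to 1313 CPM and a median ratio of 2.88, and the GABA-B auxiliary subunits Kctd12b and Kctd8 had ratios of 17.1 and 11.9.

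Sncg (gamma-synuclein), Nwd2, Asb2, Vav2, Fam167a and Kcng4 completed the 15 genes with the largest ratios, at medians of 20.4 to 27.1. Set against the 517 other spots within 3 spot spacings of a member, the median ratios of these 15 genes were smaller for 15 of 15, at 6.34 for Irx3 to 30.9 for Htr5b. Of the 129 lower genes, 17 tied at a median ratio of 0, and those with the highest level in other spots were Avp, Crym, Hbb-bs, Oxt and Kcnv1, with means of 1.03 to 5.24 CPM in habenula spots and 38.0 to 91.9 CPM in other spots. Avp and Oxt encode the hypothalamic peptides vasopressin and oxytocin, and Hbb-bs a beta globin.

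**Figure D3:**
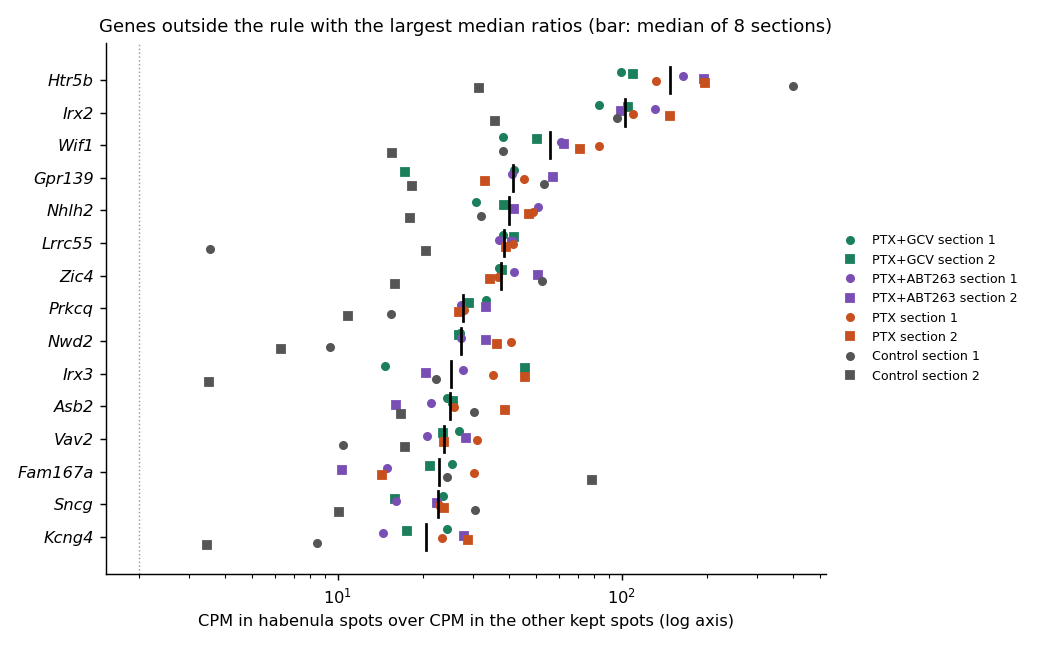
CPM in habenula spots over CPM in the other kept spots of the same section (log axis) for the 15 genes outside the rule with the largest median ratios. Each symbol is 1 section, the bar is the median of 8 sections and the dotted line marks a ratio of 2, which every symbol exceeds. In Control section 1 the symbols of Wif1, Lrrc55, Irx3, Vav2, Fam167a and Kcng4 rest on 1 UMI each.

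Of 29 listed medial habenula genes outside the rule, 23 reached 20 CPM. Of these, 8 were higher and 0 lower in all 8 sections, beside 1.02% and 1.6% of all genes considered. Their summed level was higher than in other spots in 8 of 8 sections, by a median of 4.26 times. It came to 5265 and 5440 CPM in PTX+GCV, 5484 and 5697 CPM in the PTX+ABT263-labelled sections, 6689 and 7370 CPM in PTX, and 2503 and 2215 CPM in Control. Control thus lay below all other sections. The tachykinin list (peptides and receptors) was a median of 15.1 times the other spots, higher in 8 of 8 sections. In Control it had 202 and 215 CPM, against 113 and 106 CPM in other spots. The list for acetylcholine synthesis, transport and breakdown was a median of 2.60 times the other spots, also higher in 8 of 8. Its largest part was Acly, with a mean of 275 CPM, and of its 5 genes considered 0 were higher in all 8 sections.

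As a list, the lateral habenula genes did not mark the spots. Of 14 considered, 1 was higher and 3 lower in all 8 sections, beside 1.02% and 1.6% of all genes considered. Their sum was lower than in other spots in 8 of 8, at a median of 0.585 times. The largest part of that sum was Syt1, with a mean of 483 CPM in habenula spots. Slc17a6, a vesicular glutamate transporter of thalamic and habenular neurons, had a median ratio of 2.32 and a mean of 235 CPM in habenula spots. Slc17a7, a second such transporter and one of the listed medial habenula genes, had a lower ratio, 0.695, but a higher mean, 351 CPM. The GABA-synthesising enzyme gene Gad1 had a ratio of 0.0962. The label habenula therefore holds in these data for genes of the medial nucleus. Chat, the acetylcholine-synthesising enzyme gene, gave at most 4 UMIs in a section, too few to describe.

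The surroundings changed sharply within 1 spot. The summed level of the medial habenula genes outside the rule was 2215 to 7370 CPM in the members, 1347 to 2070 CPM in touching spots and 1112 to 1400 CPM at 9 or more spacings. Genes of thalamic relay nuclei were at 903 to 1312 CPM in the members and at 1935 to 4759.8 CPM at 6 to 8 spacings. Genes of dentate granule cells, the neurons of the hippocampal gyrus above the habenula, had a median over sections of 135 CPM in the members and 684 CPM at 3 spacings.

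Other cell types contributed unevenly. The choroid plexus list (epithelium that secretes cerebrospinal fluid) summed to 288 and 328 CPM in PTX+GCV, 9780.1 and 271 CPM in the PTX+ABT263-labelled sections, 520.0 and 2725 CPM in PTX, and 484 and 373 CPM in Control. In the 2 high sections, the touching spots held more still, 17754 CPM and 27164 CPM. The myelin list had 5797 to 9165 CPM, higher than in other spots in 7 of 8 sections. Mitochondrially encoded genes were lower than in other spots in 8 of 8 sections, at a median of 0.579 times.

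**Figure D4:**
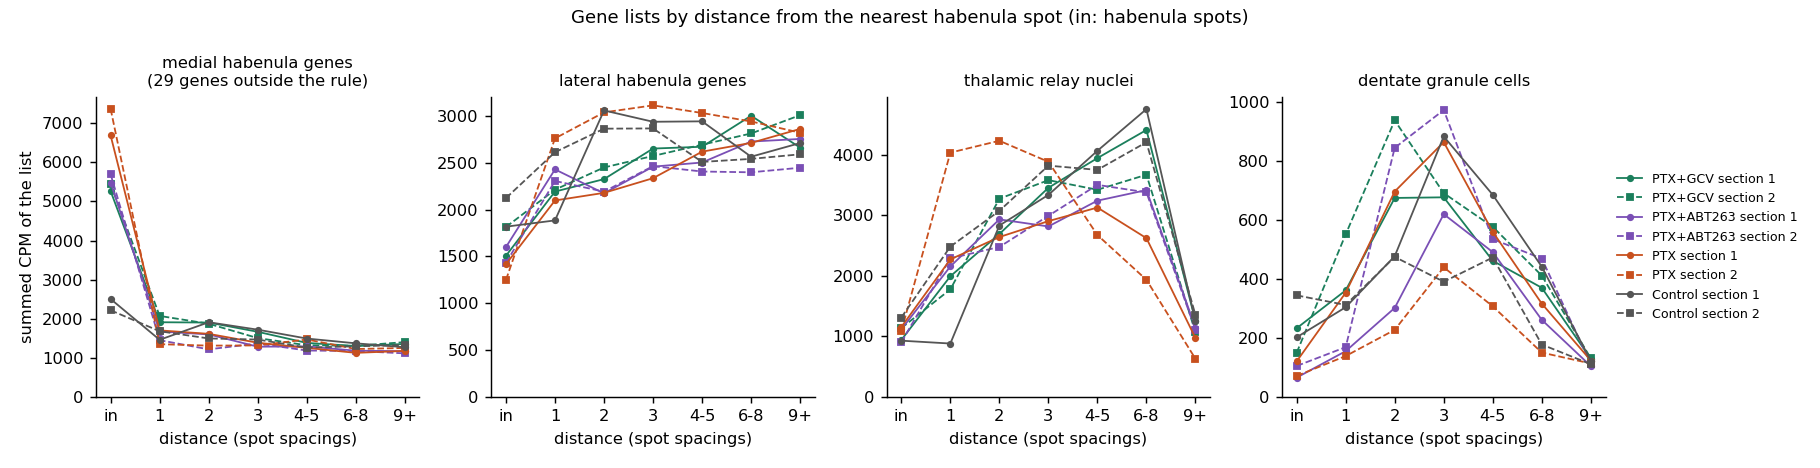
Summed CPM of 4 gene lists in habenula spots (in) and in other kept spots by distance from the nearest habenula spot, in spot spacings, with 1 line per section. Medial habenula genes drop within 1 spacing, thalamic genes rise to 6 to 8 spacings in most sections and dentate granule cell genes peak at 2 or 3 spacings.

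Habenula spots also differed among themselves. Tac2, which encodes neurokinin B, was detected in 19 of 25 and 25 of 34 spots in PTX+GCV, 21 of 23 and 22 of 26 in the PTX+ABT263-labelled sections, 17 of 18 and 19 of 19 in PTX, and 0 of 7 and 9 of 11 in Control. Its level was higher inside the patch. Interior spots, whose 6 neighbours were all members, held 1984 and 1631 CPM of Tac2 in PTX+GCV, 2727 and 2143 CPM in the PTX+ABT263-labelled sections and 3491 and 3187 CPM in PTX. The remaining (rim) spots held 1166 and 962 CPM in PTX+GCV, 776 and 1229 CPM in the PTX+ABT263-labelled sections, 1288 and 1810 CPM in PTX, and 0 and 179 CPM in Control. All 6 sections with interior spots had more Tac2 inside than on the rim, and the same held for Gng8, a gene of the rule. The interior was only 3 and 8 spots in PTX+GCV, 5 and 6 in the PTX+ABT263-labelled sections, and 3 and 4 in PTX. Calb2 was lower inside in both PTX+GCV sections and Gpr151 in PTX section 1, and both were higher inside in the other sections with interior spots. Control had 0 interior spots, but a spot in the outermost row of the array cannot have 6 neighbours. In Tac2, the rim spots of Control were below the rim spots of every other section. At the array edge, however, spots on the rim of the patch and spots cut off by the edge cannot be told apart.

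Across the spots of a section, Tac2 went with Nwd2 and Tac1. In the 6 sections with 15 or more members, Spearman's rho was 0.57 to 0.80 for Tac2 with Nwd2 and 0.29 to 0.80 with Tac1, which encodes substance P. Tac2 with Mbp, a myelin gene, gave -0.38 to -0.12. These spots share a library and differ in depth, so the values describe the patches and were not tested.

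PTX was set against Control on the UMIs summed over the habenula spots of each section. The tachykinin gene Tac2 and 8 other listed medial habenula genes were among those that rose, and 3 listed lateral habenula genes and the astrocyte gene Glul among those that fell. Of 7335 genes tested with edgeR's quasi-likelihood test (Benjamini-Hochberg adjusted p under 0.05), 145 passed (1.98%), 94 higher (1.28%) and 51 lower (0.695%), and 826 had an unadjusted p under 0.05. DESeq2 called 33, 29 of them higher, all of them among the 145. The group and the place of the Control patches at the array edge cannot be told apart in this comparison.

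Tac2 had the smallest p. It had 1785 and 2242 CPM in PTX, against 0 and 179 CPM in Control, with 1172 to 1511 CPM in the 4 sections given GCV or ABT263 after PTX. Both PTX sections were far above both Control sections, and the log2 fold change was 3.79 (SE 0.35, edgeR adjusted p 1.5e-18). Tac1 had 230.0 and 364 CPM in PTX, against 161 and 7.17 CPM in Control, and rose by 3.22 (SE 0.49, edgeR adjusted p 3.22e-07). Its Control values do not reach those of PTX and rest on 4 and 1 UMIs.

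Kcnip1 and Necab3 had the next smallest p. Kcnip1, a calcium-sensing partner of A-type potassium channels, had 397 and 444 CPM in PTX, against 0 and 43.0 CPM in Control (log2 fold change 3.51, SE 0.43, edgeR adjusted p 1.43e-10). Necab3, an EF-hand protein, had 606 and 666 CPM in PTX, against 80.7 and 93.2 CPM in Control (2.79, SE 0.36, edgeR adjusted p 4.57e-10). The 2 groups did not overlap in either gene, and the 4 sections given GCV or ABT263 lay near PTX, between 281 and 334 CPM for Kcnip1 and between 385 and 585 CPM for Necab3.

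Nwd2 had 794 and 666 CPM in PTX, against 202 and 143 CPM in Control (2.25, SE 0.32, edgeR adjusted p 4.02e-08). Pde2a, a phosphodiesterase of cyclic nucleotides, had 643 and 637 CPM in PTX, against 161 and 129 CPM in Control (2.25, SE 0.33, edgeR adjusted p 1.15e-07). Synpr, the synaptic vesicle protein synaptoporin, had 611 and 592 CPM in PTX, against 121 and 158 CPM in Control (1.99, SE 0.32, edgeR adjusted p 1.48e-06). The other genes of the 10 named upward, Cpne9, Gucy1a1 (a subunit of soluble guanylate cyclase) and Tspan13, rose by 1.84 to 2.57 on the log2 scale. None of these 6 genes overlapped between PTX and Control, which was a condition for naming all 10. Of all genes tested, 24.9% were higher in both PTX sections than in both Control sections.

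Among the genes that fell, Glul, the glutamine synthetase of astrocytes, had 285 and 351 CPM in PTX, against 1050 and 695 CPM in Control (-1.27, SE 0.25, edgeR adjusted p 0.000214). Chl1, a cell adhesion gene, had 36.6 and 12.9 CPM in PTX, against 161 and 151 CPM in Control (-2.54, SE 0.49, edgeR adjusted p 0.000141). Ddn, a dendritic protein of forebrain neurons, had 73.2 and 29.0 CPM in PTX, against 80.7 and 265 CPM in Control (-2.13, SE 0.39, edgeR adjusted p 5.81e-05). The groups did not overlap in these 3 genes, though for Ddn the nearest sections lay close together. The Control section 1 values of Chl1 and Ddn rest on only 4 and 2 UMIs. Here too this was a condition for naming, and 17.9% of all genes tested were lower in both PTX sections. Ighm, Ppp3ca, Vsnl1, Stxbp6, Nap1l5, Cadps and mt-Nd5 were also named downward, with log2 fold changes of -3.59 to -1.15.

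**Figure D5:**
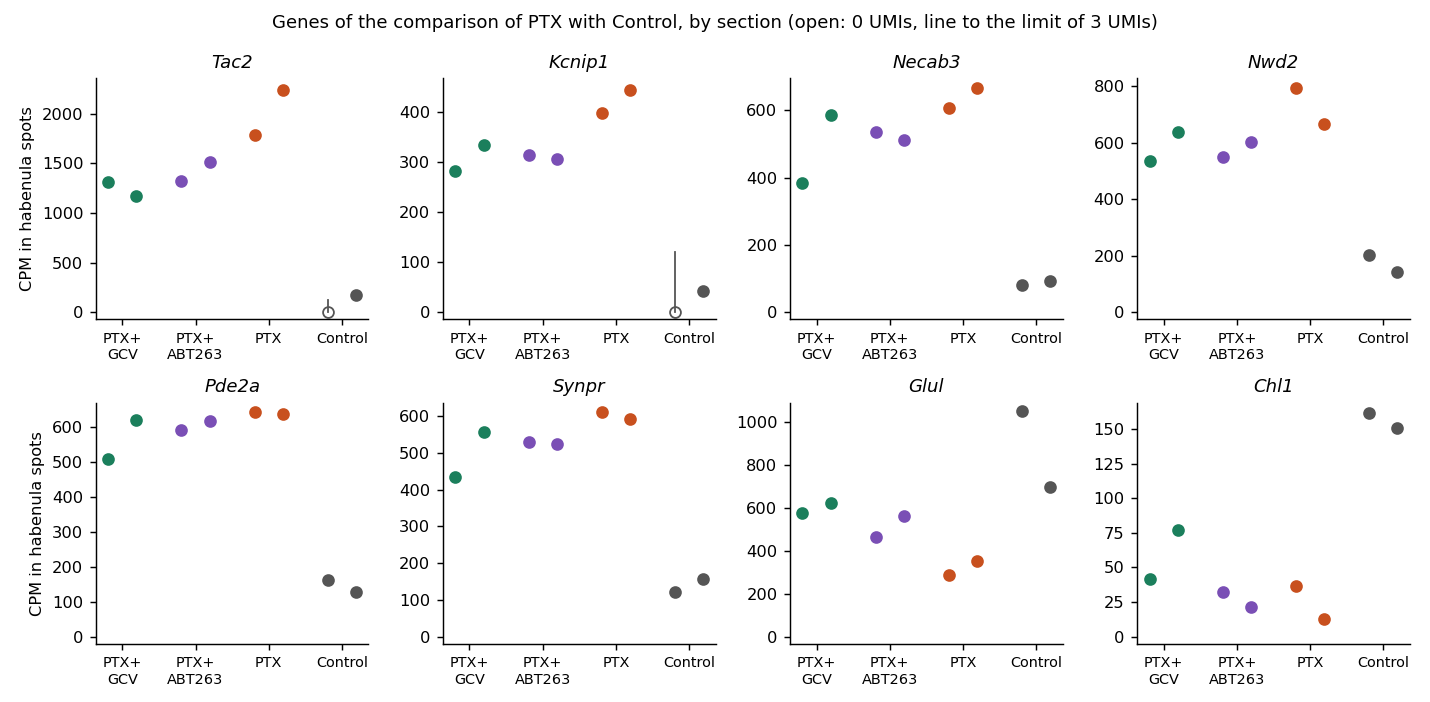
CPM in habenula spots of 8 genes that passed in PTX against Control, with 1 point per section in the order PTX+GCV, PTX+ABT263, PTX and Control. Tac2, Kcnip1, Necab3, Nwd2, Pde2a and Synpr were lowest in both Control sections, and Glul and Chl1 highest there, while open points are 0 UMIs with a line to the limit of 3 UMIs.

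By list, 9 of the 23 medial habenula genes tested rose (beside 1.28% of all genes) and 1 fell, with a median log2 fold change of 0.99 beside 0.08 for all genes. Of the 9, Tac2, Nwd2, Lrrc55 and Calb2 passed whichever Control section was left out, and the other five and Kcnip4 did not. Besides Tac2, Tac1 and Nwd2, those that rose were Slc5a7 and Slc18a3, the plasma membrane choline and vesicular acetylcholine transporters, the nicotinic subunit Chrnb3, Calb2 (calretinin), Lrrc55 and Zic1. Slc5a7 had 149 and 148 CPM in PTX, against 0 and 21.5 CPM in Control (2.99, SE 0.61, edgeR adjusted p 0.000429). Calb2 had 919.8 and 1155 CPM in PTX, against 404 and 401 CPM in Control (1.39, SE 0.27, edgeR adjusted p 0.00022). Slc18a3, at 67.9 and 64.3 CPM in PTX, had 0 UMIs in both Control sections, so it was at least 3.63-fold higher against 3 UMIs over that group. It is 1 of 11 of the 94 risen genes with 0 UMIs in both. Kcnip4, another potassium channel partner, fell, with 62.7 and 38.6 CPM in PTX and 161 and 143 CPM in Control (edgeR adjusted p 0.0293). Its value in Control section 1 rests on 4 UMIs.

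Genes of the lateral nucleus went the other way, 0 of 13 tested rising and 3 falling (beside 0.695% of all genes), with a median of -0.62. None of the 3 calls held in both fits that left out a Control section, and Pvalb turned to 0.49 without Control section 2. Htr2c, a serotonin receptor gene, had 23.5 and 22.5 CPM in PTX, against 202 and 93.2 CPM in Control (-2.25, SE 0.55, edgeR adjusted p 0.00686). Pcdh10 had 36.6 and 35.4 CPM in PTX, against 121 and 122 CPM in Control (-1.75, SE 0.47, edgeR adjusted p 0.0213). Neither gene overlapped, whereas the third, Pvalb, did. The Control section 1 values of Htr2c and Pcdh10 rest on only 5 and 3 UMIs. In the remaining lists, Gabbr2, Kcnma1, Kcnd2, Nr4a2 and Gfap rose, and Glul, the astrocyte glutamate transporter gene Slc1a2, the muscarinic receptor gene Chrm2, Gng13, Stxbp6 and mt-Nd5 fell, each losing its call without 1 or the other Control section. Ttr, of choroid plexus, passed upward with overlapping sections, 118 and 2313 CPM in PTX and 283 and 115 CPM in Control, and its log2 fold change of 3.05 became -0.28 without PTX section 2. The 14 thalamic, 15 myelin, 10 endothelial, 10 tubulin and 7 microglial genes tested held 0 calls by edgeR or DESeq2, with 7 of the 56 at an unadjusted edgeR p under 0.05.

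The part of the position in these differences was not tested, and other values also differed between the groups. Of the genes of the rule, Gng8, Chrna3 and Chrnb4 were lower in both Control sections, while Gpr151 and Pou4f1 overlapped. The median of marker UMIs per 10000 over members was 22.5 and 16.2 in PTX and 29.4 and 8.92 in Control. How far the risen genes follow these values was not tested. Median UMIs per habenula spot were 21480.0 and 14441 in PTX and 3536 and 11209 in Control, and the summed dentate granule cell list was 120.2 and 70.8 CPM in PTX and 202 and 344 CPM in Control. The choroid plexus list was higher in both PTX sections, most so in section 2, by the sums given above. The meningeal list overlapped, with 2916 and 1226 CPM in PTX and 5491 and 2323 CPM in Control. In PTX+GCV and the PTX+ABT263-labelled sections, which entered neither side, the 94 risen genes had a median ratio of 4.43 to the other spots, and 68 of them (72.3%) were 2 or more times higher there, beside 6.42% of all genes tested. The 51 fallen genes had a median ratio of 0.762 there, and all genes tested one of 1.12. Without Control section 1, 136 genes passed, 103 of them among the 145, and without Control section 2, 37 passed, 24 of them among the 145. The 10 genes named upward and the 10 named downward kept their calls without Control section 1. Without Control section 2, 9 of the 10 upward kept theirs (all but Tac1) and 0 of the 10 downward, and DESeq2 called all 10 upward and, of the 6 downward genes to which it gave an adjusted p, 2 (Glul and Nap1l5). In all, 19 genes passed whichever Control section was left out, and 14 whichever 1 of the 8 sections was, among them Tac2, Kcnip1, Necab3, Nwd2, Pde2a, Synpr, Lrrc55, Cpne9, Gucy1a1 and Tspan13.

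Whether the difference between PTX and Control was larger in habenula spots than in the other spots of the same sections was tested with limma on differences of log2 CPM within sections. It was larger for 4 of 7335 genes (0.0545%), and 1142 had an unadjusted p under 0.05. All 4 calls were lost without any 1 of the 6 PTX, PTX+GCV or PTX+ABT263-labelled sections. Without a Control section the other stands alone and adds no spread, so those fits cannot show whether the calls hold. With the replicate number as a block Necab3 and Pde2a kept theirs, and against spots within 3 spacings Necab3 and Nwd2. Necab3 differed by 2.90 on the log2 scale (SE 0.26, limma adjusted p 0.0206), Nwd2 by 2.44 (SE 0.26, adjusted p 0.0356), Pde2a by 2.26 (SE 0.19, adjusted p 0.0206) and Synpr by 2.22 (SE 0.22, adjusted p 0.0264). In the other spots, these genes were level, Necab3 for example with 61.7 and 61.2 CPM in PTX and 58.7 and 60.6 CPM in Control. Tac2 differed by 5.54 (SE 1.43) with a limma adjusted p of 0.171.

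After GCV few genes of the habenula spots differed from PTX alone. Of the 7335 genes, 7 passed (0.0954%), 5 higher (0.0682%) and 2 lower (0.0273%), with 455 at an unadjusted p under 0.05. DESeq2 called 0, with 85 at an unadjusted p under 0.05. Cplx2, a complexin of synaptic vesicle release, had 177 and 183 CPM in PTX+GCV, against 70.5 and 74.0 CPM in PTX (log2 fold change 1.32, SE 0.26, edgeR adjusted p 0.00116). Glul had 576 and 620.4 CPM in PTX+GCV, against 285 and 351 CPM in PTX (0.93, SE 0.21, edgeR adjusted p 0.0209). Parm1 had 79.8 and 85.1 CPM in PTX+GCV, against 20.9 and 25.7 CPM in PTX (1.83, SE 0.39, edgeR adjusted p 0.00775). None of these 3 overlapped, which was a condition for naming, and 17.0% of all genes tested were higher in both PTX+GCV sections.

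Ddn had 260.3 and 91.3 CPM in PTX+GCV, against 73.2 and 29.0 CPM in PTX (1.60, SE 0.30, edgeR adjusted p 0.000981). Cpne6 had 135 and 45.6 CPM in PTX+GCV, against 26.1 and 6.43 CPM in PTX (2.22, SE 0.45, edgeR adjusted p 0.00247). In both genes PTX+GCV section 1 alone was far above PTX. Tac1 fell, with 174 and 141 CPM in PTX+GCV and 230.0 and 364 CPM in PTX (-0.92, SE 0.21, edgeR adjusted p 0.0305). Ttr, the transthyretin of choroid plexus, had 72.9 and 76.8 CPM in PTX+GCV, against 118 and 2313 CPM in PTX (-4.00, SE 0.48, edgeR adjusted p 7.58e-11), and its call was lost without PTX section 2, where choroid plexus genes were high in and around the patch. Cck, Adcyap1 and Id3, next in order, were lower by 0.81 to 1.10 and did not pass (edgeR adjusted p 0.063, 0.1 and 0.121). None of the 7 calls held in every fit that left out 1 section, and the medial habenula list had a median of -0.26 beside 0.00 for all genes.

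In the PTX+ABT263-labelled sections, 9 genes passed against PTX (0.123%), 8 higher (0.109%) and 1 lower (0.0136%), with 354 at an unadjusted p under 0.05. DESeq2 called 0, with 61 at an unadjusted p under 0.05. The single gene that fell was Ddx3y, with 2.71 and 0 CPM in the PTX+ABT263-labelled sections and 62.7 and 51.5 CPM in PTX. In UMIs this was 1 against 40, a ratio of rates of 0.0220 (exact 95% interval 0.000542 to 0.130, counting error only; edgeR adjusted p 2.97e-06). It goes with the Xist values given above. Over the other kept spots, Xist had 739 and 687 UMIs in these sections and at most 1 in any other section. For every gene of this comparison, ABT263 therefore cannot be told apart from the sex or identity of the sections.

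The 8 genes that rose were Bc1, mt-Nd3, mt-Nd5, mt-Atp8, Lars2, Ttr, Enpp2 and an unnamed gene model, and 3 of the 12 mitochondrially encoded genes tested passed. All 12 had an unadjusted edgeR p under 0.05, with a median log2 fold change of 0.96. Bc1, a small noncoding RNA of neurons, had 14000.6 and 23236 CPM in the PTX+ABT263-labelled sections, against 8367 and 5266 CPM in PTX (1.60, SE 0.33, edgeR adjusted p 0.00326). In the other spots it had 36493 and 51772 CPM in those sections and 25013 and 14207 CPM in PTX. mt-Nd3, of respiratory complex I, had 2185 and 3131 CPM in the PTX+ABT263-labelled sections, against 1205 and 1512 CPM in PTX (1.12, SE 0.26, edgeR adjusted p 0.0244). mt-Nd5, mt-Atp8 and Lars2, the mitochondrial leucyl-tRNA synthetase, rose by 0.95 to 1.17. The groups did not overlap in these genes, which was a condition for naming, and 9.93% of all genes tested were likewise higher in both sections. Habenula spots had a median of 7.88% and 12.6% mitochondrial UMIs in the PTX+ABT263-labelled sections and 5.74% and 6.96% in PTX. The other spots had a median of 14.5% and 15.1% in the PTX+ABT263-labelled sections and 13.0% and 12.8% in PTX. For none of these genes did the difference in habenula spots and in other spots differ from one another by the limma test. That test called 0 of 7335 genes, with 41 at an unadjusted p under 0.05, and likewise 0 with 73 for GCV.

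Ttr and Enpp2, both of choroid plexus, passed upward but their sections overlapped. Ttr had 8075 and 33.3 CPM in the PTX+ABT263-labelled sections, against 118 and 2313 CPM in PTX, and its log2 fold change of 1.82 became -4.95 without the first PTX+ABT263-labelled section, where choroid plexus genes were high in and around the patch. Enpp2 went likewise, 1.80 against -0.53. Rsrp1, Cck, Col16a1 and Vezt were lower by 0.73 to 1.33 and did not pass (edgeR adjusted p 0.0533 to 0.31). The medial habenula list held 0 calls of 23 by edgeR or DESeq2, with 5 at an unadjusted edgeR p under 0.05 and a median of -0.04. Leaving out any 1 section kept only Ddx3y.

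Lists that bear on the treatments held no calls in any of the 3 comparisons. These were the cell cycle inhibitors and p53 axis (7 genes tested), the secretory phenotype of senescent cells (6), the BCL-2 family (6) and the tubulins (10). Neither edgeR nor DESeq2 called any, and 4 of 87 gene tests had an unadjusted edgeR p under 0.05. Their median log2 fold changes lay between -0.30 and 0.27. With 2 sections per group and 18 habenula spots in Control, a change in single genes of these lists could be missed.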

How the data were processed

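RNA was captured on Visium arrays from 8 coronal mouse brain sections, 2 per group, all described in the labels as 1 batch. The authors made the deposited counts, whole UMI counts per gene and spot for 32285 features, by Space Ranger, version 1.2.1 according to the headers of the files, against mm10. Seurat 4.0 is also named in the submitters' processing notes, and the counts carry no normalization of it. Sections held 19870666 to 42886400 UMIs over kept spots.

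The spot filter and the rule for habenula spots were applied as given in the report, and UMIs were summed per section over members and over other kept spots. A small sum limits precision, which is why 3 UMIs were taken as the limit of a count of 0. The members and the 29 gene lists were chosen with earlier results of these data known. Sums over members were tested with edgeR 4.0.16 in R 4.3.3 (TMM factors, filterByExpr, all 4 groups in 1 quasi-likelihood fit, the 5 marker genes left out), where the SE is the size of a log2 fold change divided by the root of its F. DESeq2 1.42.0 was an alternative and gave an adjusted p for 2073 genes of PTX against Control. Effects in members and in other spots were compared with limma 3.58.1 on log2 CPM with a prior count of 2. Levels are CPM of these sums, which do not adjust for gene length. Shares were compared with exact permutation tests in scipy 1.17.1.

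Named genes are the markers and Cdkn2a, the 15 largest and 5 smallest ratios to other spots, and per comparison up to 10 genes each way that passed with non-overlapping sections (where under 5 passed, the 5 with the smallest p), without unnamed gene models. Up to 5 genes each way where effects differed, up to 4 per list, Xist and Ddx3y complete the rule. Genes named from lists because they passed (5 or fewer of a list, or singled out) were chosen after their values were seen. Alternatives were other thresholds of the rule, counts thinned to 7500 UMIs, other filters, scalings and tools, the replicate number as a block, and leaving out each section, in which a section left alone in its group is taken to vary as the rest do. Images and the authors' clusters were not used here.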

Additional observations from a re-analysis of the deposited data

Results flagged for a closer look

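The difference between PTX and Control was larger in habenula spots than in the other spots of the same sections for 4 genes by limma's test of that difference. Necab3 differed by 2.90 on the log2 scale (adjusted p 0.0206), Nwd2 by 2.44 (adjusted p 0.0356), Pde2a by 2.26 (adjusted p 0.0206) and Synpr by 2.22 (adjusted p 0.0264), each with both PTX sections above both Control sections in the habenula spots. In the other spots, Pde2a had 159.9 and 167 CPM in PTX and 168 and 157 CPM in Control, and Synpr 116 and 113 CPM in PTX and 100.4 and 127.4 CPM in Control. All 4 calls were lost without any 1 of the 6 PTX, PTX+GCV or PTX+ABT263-labelled sections, and 2 of the 4 with the replicate number as a block. The 4 calls are those of the comparison in which the Control patches lie at the array edge, and the part of that position was not tested.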

How the results depend on the processing

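The shares of habenula spots kept their direction in all 3 comparisons under each alternative rule, thinning, filter and omission of a section, and PTX minus Control ranged between 0.184 percentage points under the looser rule and 0.401 without Control section 2. Leaving out members under 3 rows from the array edge, chosen after seeing the data, removes most Control members by construction and says nothing about this direction. Genes higher than in other spots numbered 83 to 170 when a section was left out. Genes passing in PTX against Control numbered 33 by DESeq2, 91 with no filter on low counts, 89 with only the 2 groups compared, 30 under the stricter rule, 257 under the looser rule and 37 to 136 without 1 section. For PTX+GCV against PTX they numbered 0 by DESeq2, 25 with only the 2 groups, 3 under the stricter rule, 3 for members 3 or more rows from the edge and 1 to 8 without 1 section. For PTX+ABT263 against PTX they numbered 0 by DESeq2, 3 and 17 under the stricter and looser rules and 3 to 18 without 1 section. Without the Control group, also chosen after seeing the data, 7 and 13 genes passed in these 2 comparisons. The genes whose effect differed in habenula spots numbered 7 with a prior count of 0.5, 2 against spots within 3 spacings and 0 to 3453 without 1 section for PTX, 0 to 5 for GCV and 0 to 2 for ABT263. The count of 3453 came without Control section 2, where a lone Control section adds no spread. The cause of the other changes was not tested.

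Section numbers do not pair sections (correlations of deviations -0.0240 to 0.0233). With the replicate number as a block, 145, 6 and 6 genes passed for PTX, PTX+GCV and PTX+ABT263, and 2, 0 and 0 in the tests of the effect.

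When 1 section was left out, the log2 fold change of PTX against Control ran between -1.63 and 0.20 for Vsnl1, -1.46 and 0.13 for mt-Nd5, -4.11 and 0.49 for Pvalb and -2.97 and 0.59 for Gng13, turning without Control section 2. That of Ttr ran between -0.28 (without PTX section 2) and 4.03. For PTX+ABT263 against PTX it ran between -0.53 and 2.65 for Enpp2 and -4.95 and 5.18 for Ttr, turning without the first PTX+ABT263-labelled section. Of the values of named genes in PTX against Control under the alternatives, 493 kept direction and call and 110 lost the call. Depth limits what Control section 1 can show, since its 7 habenula spots held 24769 UMIs.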

Other observations

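Tcf7l2, a transcription factor of thalamus and habenula, had 271 and 309 CPM in PTX+GCV, 306 and 252 CPM in the PTX+ABT263-labelled sections, 287 and 312 CPM in PTX, and 363 and 251 CPM in Control, overlapping in all comparisons, and was at a median of 3.25 times the level in other spots. Tacr1, the receptor of substance P, had 55.5 and 51.9 CPM in PTX+GCV, 56.9 and 38.0 CPM in the PTX+ABT263-labelled sections, 52.3 and 48.3 CPM in PTX, and 40.4 and 28.7 CPM in Control, at a median of 11.1 times the other spots. Otx2, a homeobox factor, stood at a median of 10.9 times the other spots, with 24.3 and 16.6 CPM in PTX+GCV, 35.2 and 45.1 CPM in the PTX+ABT263-labelled sections, 57.5 and 54.7 CPM in PTX, and 0 and 7.17 CPM in Control. Its levels did not follow those of Ttr, which was at 33.3 CPM in the second PTX+ABT263-labelled section and at 118 CPM in PTX section 1.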
